A study of Mus musculus with 6 samples.

Results

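Sinusoidal endothelial genes were followed in donor HSPCs (hematopoietic stem and progenitor cells) sorted 6 h post-BMT (bone marrow transplantation) out of their recipients. The group was a list of 10 named genes, Cdh5, Pecam1, Kdr, Flt4, Stab1, Stab2, Emcn, Eng, Tek and Aplnr, and all 10 were found among the 24965 genes of the FPKM table by their Ensembl identifiers. The donors were WT mice or Hemgn-/- mice, a whole-body knockout made with zinc finger nucleases on a C57BL/6 (CD45.2) background. By the study's methods, the controls were WT littermates and the mice were adults of both sexes. All recipients carried CD45.1 and had been irradiated with a split dose, so both groups share the irradiated host. There were 3 libraries from each donor genotype. The labels describe the sorted cells as CD45.2+Lin-Sca-1+, whereas the study's methods and design text add c-Kit, and the number of mice behind a library is not given in the sources used here.

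Sinusoids are the thin-walled, fenestrated vessels of the bone marrow through which blood cells enter and leave, and injected stem cells reach the marrow through them. Their endothelium is held together by the junction proteins VE-cadherin (Cdh5) and PECAM-1 (Pecam1), depends on receptors for VEGFs (Kdr, Flt4) and angiopoietins (Tek), and clears waste from the blood through the scavenger receptors stabilin-1 and stabilin-2 (Stab1, Stab2). Endothelial cells do not carry CD45, so a gate on donor CD45.2 is not designed to collect them. Several of these genes are also known in blood cells: Pecam1, Eng, Emcn and Tek in stem and progenitor cells, and Stab1 in macrophages.

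The libraries held 23668015 to 28897360 fragments, and FPKM (fragments scaled to gene length and to library depth) gave each fragment a weight of 0.0346 to 0.0423 per 1 kb of exon. Hemgn, the disrupted gene, was lower in all 3 Hemgn-/- libraries (0.755 to 1.60 FPKM) than in WT libraries (2.96 to 5.64 FPKM). Of 14 HSPC markers, 13 exceeded 1 FPKM in at least 1 library, as did 13739 of all 24965 genes. Passing can be narrow: Hlf, named after its values were seen, passed through WT replicate 3 alone (1.08 FPKM). Ptprc, the gene of CD45, was at 87.1 to 113 FPKM. Kit and Ly6a, which code for antigens of the sort (c-Kit by the methods and design text but not by the labels), were chosen for that reason. Kit was at 5.50 to 7.24 FPKM and Ly6a (Sca-1) at 8.27 to 17.3 FPKM, while the myeloid lysozyme gene Lyz2 was at 16135 to 25252 FPKM. In such sorted bulk samples, fewer cells of a type and less RNA per cell cannot be told apart.

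The 10 genes spanned a wide range of levels. In WT HSPCs the order of mean FPKM was Eng, Pecam1, Aplnr, Stab2, Stab1, Kdr, Emcn, Cdh5, Flt4 and Tek. The ranges of Eng and Pecam1 overlapped, as did those of each neighbouring pair from Stab1 through Kdr and Emcn to Cdh5, and the other neighbours were apart. In Hemgn-/- HSPCs Pecam1 stood above Eng without overlap, and the ranges of all neighbours from Stab1 down to Flt4 overlapped. Eng and Pecam1 lay above 85.6% and 85.7% of all genes in the table by mean FPKM, whereas Flt4 lay above 41.1%. Flt4 and Cdh5 stayed under 1 FPKM in every library, so 8 of the 10 genes passed the study's filter (FPKM above 1 in at least 1 library) and were tested.

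**Figure D1:**
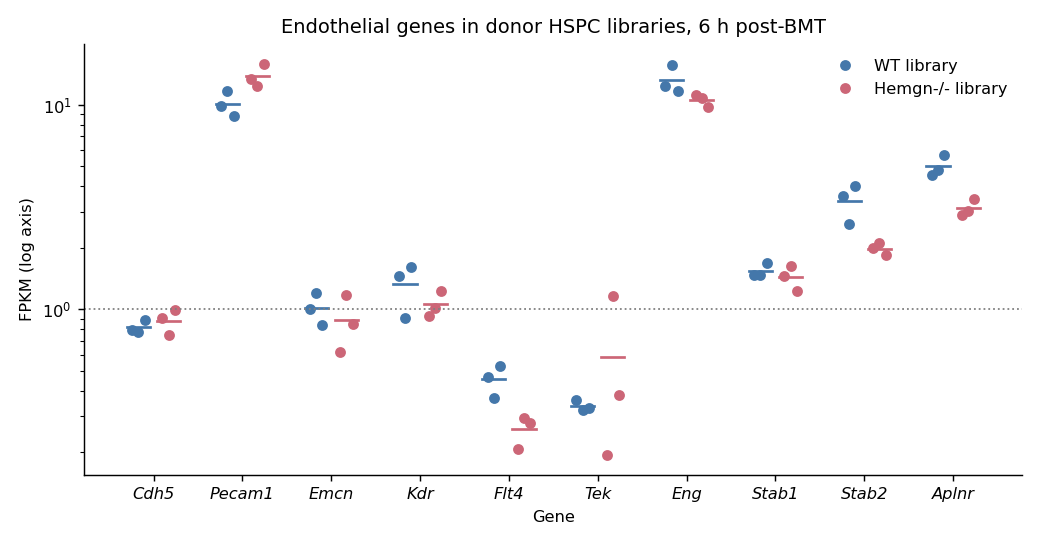
FPKM on a log axis for each of the 10 genes, with 1 point per library (WT in blue, Hemgn-/- in red), a bar at the mean of each group (n = 3) and a dotted line at 1 FPKM. Aplnr, Stab2, Flt4 and Eng sit lower in all 3 Hemgn-/- libraries than in any WT library, Pecam1 sits higher, and 1 Hemgn-/- library stands above the other 5 for Tek.

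Differences were tested with limma on log2(FPKM + 1) over 13739 genes, as Hemgn-/- minus WT. This scale understates the change of low genes, and most of the 10 genes are low. For a single gene the smallest two-sided p of an exact permutation test is 0.1 at 3 libraries per group. The p-values given here are therefore limma's, adjusted by Benjamini-Hochberg over all 13739 genes. An adjusted p under 0.05 was reached by 1 of the 8 tested genes, Aplnr, which was lower, where 2.09% of all genes tested were called lower and 4.37% higher. That split was 287 lower and 600 higher genes, and with median-ratio scaling 387 and 342. None of the 8 reached the study's thresholds (p under 0.05 and 1.5-fold) on this scale, which 6.83% of all genes did (2.74% lower). That count depended on the scale: Aplnr and Stab2 passed those thresholds, both lower, with a pseudocount of 0.1, with median-ratio scaling, with quantile normalization and with voom (a weighted limma fit on the recovered fragments), where 3.56% to 3.73% of all genes did so. Stab2 alone passed with TPM and without WT replicate 2, and Aplnr alone without WT replicate 1 and without Hemgn-/- replicate 3. At an unadjusted p under 0.05 from limma, 4 of the 8 differed (Aplnr, Stab2 and Eng lower, Pecam1 higher), where 21.4% of all genes did. The groups did not overlap for the same 4 genes, 3 lower and 1 higher, where 27.4% of all genes did not overlap, 8.18% lower and 19.2% higher. The log2 fold changes of the 8 genes had a median of −0.14, with 6 below 0, against 0.087 and 37.0% below 0 for all genes tested. Tek passed the filter through 1 Hemgn-/- library, so these counts describe the genes that passed and not all 10.

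Aplnr (ENSMUSG00000044338) encodes the receptor for apelin, a G protein-coupled receptor of blood vessels. It is a gene of 1 exon of 3699 bases on chromosome 2 (GRCm38, 85136225 to 85139923, plus strand). It was at 4.56, 4.82 and 5.71 FPKM in WT replicates 1, 2 and 3, and at 2.89, 3.02 and 3.46 FPKM in Hemgn-/- replicates. All Hemgn-/- libraries were below all WT libraries. The values rest on 399 to 585 fragments in WT and 292 to 370 in Hemgn-/- libraries. The mean fell from 5.03 ± 0.602 to 3.12 ± 0.302 FPKM (SD, n = 3 each), a ratio of 0.621. The log2 fold change was −0.55 (SE 0.131, 95% interval −0.85 to −0.25, adjusted p = 0.0453 from limma). The call did not hold when any single library was omitted. Its adjusted p from limma was then 0.0789 without WT replicate 1, 0.0791 without WT replicate 2, 0.137 without WT replicate 3, and 0.114, 0.117 and 0.0885 without Hemgn-/- replicates 1, 2 and 3. The log2 fold change stayed between −0.69 and −0.47 over all 15 alternatives.

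Stab2 (ENSMUSG00000035459) encodes stabilin-2, a scavenger receptor of sinusoidal endothelium that takes up hyaluronan. The gene lies on chromosome 10 (86841198 to 87008025, minus strand). It was at 3.57, 2.61 and 4.0 FPKM in WT and at 2.00, 2.1 and 1.85 FPKM in Hemgn-/- replicates 1, 2 and 3. The lowest WT library was above the highest Hemgn-/- library, and the Hemgn-/- libraries lay close together, with a coefficient of variation of 6.43% against 21.0% in WT. The means were 3.39 ± 0.712 and 1.98 ± 0.127 FPKM, a ratio of 0.584. Its log2 fold change of −0.55 (SE 0.161, 95% interval −0.91 to −0.18) did not pass the adjustment (unadjusted p = 0.00833, adjusted p = 0.0882 from limma). It passed without WT replicate 2 (adjusted p = 0.0471) and with voom (adjusted p = 0.0335), under which 2.41% of genes were called lower.

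Stab1 (ENSMUSG00000042286), the paralog of Stab2 on chromosome 14 (31139013 to 31168641, minus strand), encodes stabilin-1, which macrophages also use to clear debris. It was at 1.47, 1.48 and 1.68 FPKM in WT and at 1.45, 1.62 and 1.22 FPKM in Hemgn-/- replicates. The groups overlapped, and the log2 fold change was −0.066 (95% interval −0.44 to 0.31, adjusted p = 0.851 from limma), and −0.0039 without Hemgn-/- replicate 3. Exons of Stab1 share 112 bases with Nt5dc2 on the opposite strand and those of Stab2 share 141 bases with Gm16268, and without a stated strand setting reads there cannot be assigned.

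The promoters of both stabilins are shown beside that of Eng, the most abundant of the 10 genes in WT. A difference between the stabilins in their change was not tested, nor was any part of the promoters in it. Each line gives 250 bases before the RefSeq start (GRCm38.p6), 5′ to 3′ on the gene's strand, with matches to ETS-type motifs (AGGAAG and CCGGAA, both strands) in capitals. ETS factors are transcription factors used by endothelial and blood cells. The windows are chr10:87007943-87008192 for Stab2, chr14:31168642-31168891 for Stab1 and chr2:32646345-32646594 for Eng. GENCODE M21 places the start of Stab2 upstream of the RefSeq start, inside its window.
Stab2: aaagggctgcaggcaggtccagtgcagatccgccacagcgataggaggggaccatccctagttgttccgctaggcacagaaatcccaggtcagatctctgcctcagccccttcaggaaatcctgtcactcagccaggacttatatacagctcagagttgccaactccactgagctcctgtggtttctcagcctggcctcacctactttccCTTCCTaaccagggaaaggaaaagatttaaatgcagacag
Stab1: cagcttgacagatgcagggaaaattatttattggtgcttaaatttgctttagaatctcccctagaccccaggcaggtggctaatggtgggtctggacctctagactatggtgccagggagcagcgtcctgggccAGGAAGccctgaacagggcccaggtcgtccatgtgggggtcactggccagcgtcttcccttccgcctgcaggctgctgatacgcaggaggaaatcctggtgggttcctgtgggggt
Eng: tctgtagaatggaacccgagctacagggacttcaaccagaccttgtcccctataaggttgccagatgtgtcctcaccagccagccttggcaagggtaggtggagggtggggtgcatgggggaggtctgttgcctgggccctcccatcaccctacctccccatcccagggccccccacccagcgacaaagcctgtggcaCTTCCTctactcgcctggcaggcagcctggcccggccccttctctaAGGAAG
AGGAAG was found at bases −40 to −35 for Stab2, at −116 to −111 for Stab1 and at 2 places for Eng, −52 to −47 and −6 to −1, where base −1 is the last before the start. RefSeq windows were held for 7 of the 10 genes, all but Cdh5, Pecam1 and Aplnr. AGGAAG was present in 4 of the 7 (Stab1, Stab2, Emcn and Eng) and CCGGAA in 1 (Kdr), while 29.5% and 12.0% of 32851 RefSeq windows of the same length held them. GATAAG, the forkhead motif TGTTTAC and the E-box motifs CAGCTG and CACGTG were searched on both strands too and were found in 0 of the 7, where 6.55%, 3.17%, 13.0% and 6.02% of all windows held them. A match of this kind is a description of the letters, and binding was not measured.

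The receptors for VEGFs were at low levels. Kdr (ENSMUSG00000062960), the gene of VEGFR2 on chromosome 5 (75932827 to 75978458, minus strand), was at 1.46, 0.909 and 1.62 FPKM in WT and at 0.928, 1.02 and 1.23 FPKM in Hemgn-/- replicates. WT replicate 2 was the lowest of all 6 libraries, so the groups overlapped. The log2 fold change was −0.17 (95% interval −0.62 to 0.28, adjusted p = 0.669 from limma), and −0.30 and −0.075 without WT replicates 2 and 3. Flt4 (ENSMUSG00000020357), the gene of VEGFR3 on chromosome 11 (49609263 to 49652739, plus strand), marks lymphatic vessels and the sinusoids of the marrow. It was at 0.467, 0.370 and 0.530 FPKM in WT and at 0.208, 0.292 and 0.277 FPKM in Hemgn-/- replicates, which stand for 78 to 121 and 47 to 66 fragments. The groups did not overlap and the ratio of means was 0.569, but Flt4 was under the filter. When all genes were tested, its log2 difference of −0.21 had an unadjusted p above 0.05 (adjusted p = 0.406 from limma).

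Tek (ENSMUSG00000006386), the gene of the angiopoietin receptor TIE2 on chromosome 4 (94739289 to 94874976, plus strand), was at 0.359, 0.323 and 0.329 FPKM in WT libraries. In Hemgn-/- replicates 1, 2 and 3 it was at 0.193, 1.17 and 0.382 FPKM, which are 25, 144 and 52 fragments. Hemgn-/- replicate 2 stood above the other 5 libraries while Hemgn-/- replicate 1 was the lowest, a coefficient of variation of 88.9% against 5.61% in WT. The log2 fold change of 0.19 had a 95% interval from −0.46 to 0.85 (adjusted p = 0.738 from limma), and without Hemgn-/- replicate 2 Tek was under the filter.

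Eng (ENSMUSG00000026814) encodes endoglin, a co-receptor for TGF-β and BMP ligands, on chromosome 2 (32646595 to 32682669, plus strand). It was at 12.3, 15.7 and 11.6 FPKM in WT and at 11.1, 10.8 and 9.76 FPKM in Hemgn-/- replicates. The groups did not overlap, and WT replicate 2 was the highest library. The log2 fold change was −0.29 (SE 0.126, 95% interval −0.58 to −0.0052, unadjusted p = 0.0468, adjusted p = 0.226 from limma), and without WT replicate 2 it was −0.17. Exons of Eng share 61 bases with Fpgs on the opposite strand.

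The adhesion molecules did not share a pattern. Pecam1 (ENSMUSG00000020717), which lies on chromosome 11 (106654217 to 106750628, minus strand), was at 9.88, 11.7 and 8.81 FPKM in WT and at 13.3, 12.3 and 15.9 FPKM in Hemgn-/- replicates. All Hemgn-/- libraries were above all WT libraries, opposite to Aplnr and Stab2. The log2 fold change was 0.42 (SE 0.134, 95% interval 0.11 to 0.72, unadjusted p = 0.0132, adjusted p = 0.114 from limma). Cdh5 (ENSMUSG00000031871), on chromosome 8 (104101625 to 104144511, plus strand), is the junction protein most restricted to endothelium. It was at 0.794, 0.772 and 0.884 FPKM in WT and at 0.902, 0.745 and 0.996 FPKM in Hemgn-/- replicates, from 79 to 121 fragments. The groups overlapped, and with all genes tested its log2 difference was 0.049 (adjusted p = 0.900 from limma). Emcn (ENSMUSG00000054690), on chromosome 3 (137341067 to 137432185, plus strand), encodes the mucin-like endomucin of sinusoids and of some stem cells. It was at 1.00, 1.21 and 0.834 FPKM in WT and at 0.620, 1.18 and 0.844 FPKM in Hemgn-/- replicates, with overlap and a log2 fold change of −0.10 (95% interval −0.58 to 0.37, adjusted p = 0.810 from limma). Without Hemgn-/- replicate 1 it was −0.0018, and without Hemgn-/- replicate 2 it was −0.22.

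**Figure D2:**
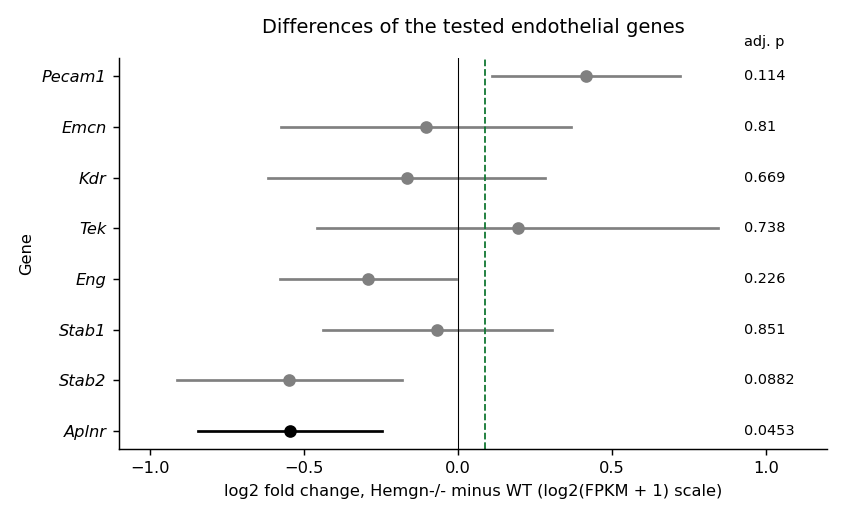
Log2 fold change of the 8 tested genes (Hemgn-/- minus WT on the log2(FPKM + 1) scale, n = 3 each) with 95% intervals and the adjusted p from limma at the right, and a dashed line at the median of all genes tested (0.087). Aplnr, in black, is the gene with an adjusted p under 0.05, and the intervals of Stab2 and Eng also lie below 0 while that of Pecam1 lies above 0.

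Ratios between genes within a library do not depend on scaling between libraries. The pairs were chosen after the values were seen, each setting a gene whose groups did not overlap beside a gene whose groups did. The ratios are therefore a description with no test, and their separation restates that of the single genes. Stab2 was at 2.44, 1.77 and 2.38 times the FPKM of Stab1 in WT replicates 1, 2 and 3, and at 1.38, 1.30 and 1.51 times in Hemgn-/- replicates. Aplnr was at 5.74 to 6.45 times Cdh5 in WT and 3.20 to 4.05 times in Hemgn-/- libraries. Kdr was at 2.45 to 3.12 times Flt4 in WT and 3.47 to 4.46 times in Hemgn-/- libraries.

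**Figure D3:**
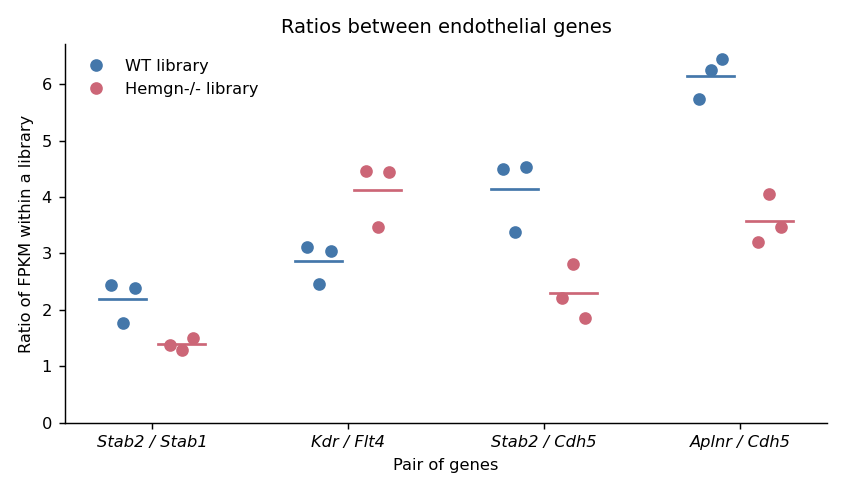
Ratios of FPKM between pairs of the 10 genes within each library (WT in blue, Hemgn-/- in red, bars at group means, n = 3), for pairs picked after the values were seen. Stab2 over Stab1, Stab2 over Cdh5 and Aplnr over Cdh5 are lower and Kdr over Flt4 is higher in every Hemgn-/- library than in every WT library.

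The 5 genes listed as mostly restricted to endothelium (Cdh5, Kdr, Flt4, Stab2 and Aplnr) summed to 9.48 to 12.7 FPKM in WT and 6.92 to 7.81 FPKM in Hemgn-/- libraries. The 4 genes also known in HSPCs (Pecam1, Eng, Emcn and Tek) summed to 21.6 to 29.0 FPKM and 25.3 to 26.9 FPKM, which overlap. Aplnr and Stab2 make up most of the first sum, which therefore largely restates their values. Flt4 was also lower without overlap but was under the filter, and the groups overlapped for Cdh5 and Kdr. In the second sum Pecam1 was higher and Eng lower, each without overlap. The split into these lists was made with earlier results of these data known.

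A wider list of 32 other endothelial genes was examined in the same way. Of these, 20 passed the filter, 5 with higher and 15 with lower values in Hemgn-/- HSPCs, and the median log2 fold change was −0.26. In limma's test 0 of the 20 had an adjusted p under 0.05, and 4 were lower and 1 was higher at an unadjusted p under 0.05, where 6.46% and 15.0% of all genes tested were lower and higher at that level. At the study's thresholds 4 of the 20 (Egfl7, Robo4, Plvap and Ackr1) were lower, where 2.74% of all genes were, and 2 of them without Hemgn-/- replicate 2. The 5 genes at an unadjusted p under 0.05, and Vwf, Nos3, Calcrl and Cldn5, are named after their values were seen. Plvap, a protein of the diaphragms of fenestrated vessels, was at 21.8, 24.0 and 26.4 FPKM in WT and at 20.1, 8.11 and 9.09 FPKM in Hemgn-/- replicates (log2 fold change −1.0, adjusted p = 0.0734 from limma). Hemgn-/- replicate 1 lay near the WT libraries, and without it the adjusted p of Plvap was 0.00147. Egfl7, a secreted factor, averaged 1.94 ± 0.183 FPKM in WT against 0.872 ± 0.225 FPKM in Hemgn-/- HSPCs (SD of 3 libraries, adjusted p = 0.0691 from limma). Robo4, a guidance receptor, was at 3.50 ± 0.981 and 1.90 ± 0.525 FPKM (adjusted p = 0.131 from limma). Ackr1, an atypical chemokine receptor, was at 4.23 ± 1.06 and 2.44 ± 0.479 FPKM (adjusted p = 0.103 from limma). Which cells carried these transcripts was not tested. Icam2, an adhesion molecule shared with leukocytes, was at 8.77 ± 0.181 FPKM in WT libraries and averaged 12.0 ± 2.45 FPKM in Hemgn-/- libraries. With voom on the recovered fragments, Plvap (adjusted p = 0.0252) and Egfl7 (adjusted p = 0.0360) passed. S1pr1, a lipid receptor that lymphocytes also carry and the most abundant gene of this list, was at 38.9 to 42.7 FPKM in WT libraries against 45.0 to 46.5 FPKM in Hemgn-/- libraries. Its log2 fold change was 0.16 (adjusted p = 0.253 from limma), and 19.2% of all genes tested were higher without overlap. Vwf (0.0421 to 0.263 FPKM) and Nos3 (0.0349 to 0.139 FPKM), among the 12 genes of the list under the filter, were close to 0 in all 6 libraries. Others exceeded 1 FPKM in every library, such as Calcrl at 8.97 to 15.0 FPKM and Cldn5 at 1.13 to 3.08 FPKM.

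Ligands of these receptors formed a list of 16 genes. Rows were found for 14, of which 6 were tested, with a median log2 fold change of 0.082. Of the 6, 0 had an adjusted p under 0.05 from limma. At an unadjusted p under 0.05 from limma 1 gene was lower, where 6.46% of all genes tested were. That gene was Vegfa, the ligand of Kdr, at 1.12, 1.18 and 1.61 FPKM in WT and at 0.544, 0.580 and 0.331 FPKM in Hemgn-/- replicates. It passed the filter through WT libraries, its log2 fold change was −0.63 (adjusted p = 0.118 from limma), and it passed with voom (adjusted p = 0.0277). Vegfb and Angpt2, named after their values were seen and not tested, were higher without overlap in FPKM, where 19.2% of all genes tested were. Vegfb was at 0.105 to 0.270 FPKM in WT and 0.476 to 0.884 FPKM in Hemgn-/- libraries, and Angpt2 at 0.0229 to 0.244 and 0.248 to 0.403 FPKM. These values rest on few fragments: 4 to 12 in WT and 20 to 41 in Hemgn-/- libraries for Vegfb. For Angpt2 they were 2 to 25 and 24 to 43, which overlap. Angpt1, a ligand of Tek and the most abundant of the list, was at 3.88 ± 0.457 FPKM in WT libraries against 3.96 ± 0.661 FPKM in Hemgn-/- libraries, a log2 fold change of 0.020 (95% interval −0.31 to 0.35). Of 22 genes of receptor partners and signalling, 15 were tested (median log2 fold change −0.067) and 1 was called, higher, where 4.37% of all genes were. It was Ptpn6, a phosphatase of blood cells, which rose from 245 ± 5.01 to 322 ± 15.4 FPKM (log2 fold change 0.39, adjusted p = 0.00737 from limma).

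Markers of other cells were set beside these results, and their part in them was not tested. Of 13 macrophage and monocyte markers tested, 2 rose and 3 fell (median log2 fold change −0.055), where 4.37% of all genes tested were called higher and 2.09% lower. But 1 to 3 of these markers were called when a library was left out, 1 without limma's trend and 3 with a replicate block. Vcam1, an adhesion molecule of marrow macrophages that endothelium and stroma also express, fell from 10.2 ± 0.834 to 6.08 ± 0.373 FPKM (adjusted p = 0.00940 from limma), and the complement gene C1qb fell from 30.1 ± 1.97 to 21.9 ± 1.29 FPKM (adjusted p = 0.0234). Lyz2 fell as well (log2 fold change −0.37, adjusted p = 0.0454), while Csf1r, the receptor for M-CSF, and Adgre1, the gene of F4/80, rose (log2 fold changes 0.50 and 0.51, adjusted p = 0.0161 and 0.0343). The list of 15 markers summed to 22734 to 25433 FPKM in WT and 16302 to 20375 FPKM in Hemgn-/- libraries, nearly all of it Lyz2, and 0 of them were at 0 in all libraries. The 9 erythroid markers summed to 465 to 553 FPKM in WT libraries and 38.8 to 53.9 FPKM in the others. Of 8 tested, 4 were called, all lower, where 2.09% of all genes tested were called lower. They were the hemoglobin genes Hba-a1, Hbb-bs and Hbb-bt and the heme synthesis gene Alas2, with log2 fold changes of −4.01, −3.90, −2.09 and −3.32. HSPC markers summed to 132 to 139 FPKM in WT and 168 to 173 FPKM in Hemgn-/- libraries, most of it Ptprc. Of 13 tested, 3 were called higher (Ptprc, Cd48 and Cd34), where 4.37% of all genes were, a count that was 0 with median-ratio scaling. By log2 fold change 9 were higher and 4 lower, where 37.0% of all genes tested were lower. Kit, an antigen of the sort by the methods but not by the labels, was lower without overlap, where 8.18% of all genes tested were. It was at 6.14 to 7.24 FPKM in WT and 5.50 to 5.90 FPKM in Hemgn-/- libraries (adjusted p = 0.398 from limma). Of 9 stromal markers 3 were tested and 0 called, with 0 also at an unadjusted p under 0.05 from limma. Their sums of 17.4 to 20.8 FPKM in WT and 15.2 to 20.6 FPKM in Hemgn-/- libraries overlapped, and most of them was Cxcl12. Other stromal markers, named after their values were seen, were present at lower levels, with 464 to 742 fragments a library for Col1a1, 190 to 386 for Col1a2, 45 to 143 for Lepr and 67 to 122 for Kitl, while Pdgfra had 0 in 5 libraries and 11 in Hemgn-/- replicate 3. The 8 megakaryocyte and platelet markers, cells that also carry Pecam1, summed to 27.8 to 30.2 FPKM in WT and 30.7 to 33.7 FPKM in Hemgn-/- libraries. Of these 6 were tested and 0 called, with 2 higher at an unadjusted p under 0.05 from limma, where 15.0% of all genes tested were.

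**Figure D4:**
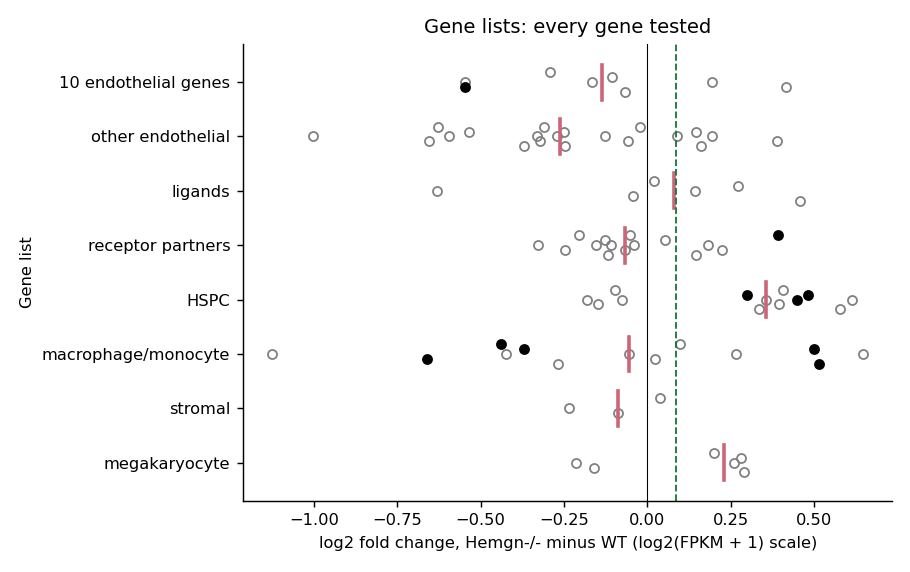
Log2 fold change (Hemgn-/- minus WT on the log2(FPKM + 1) scale) of every tested gene in 8 lists (erythroid markers are not drawn), with filled points for an adjusted p under 0.05 from limma, red bars at list medians and a dashed line at the median of all genes tested. The medians of the tested genes among the 10 endothelial genes (−0.14) and among the other endothelial genes (−0.26) lie below that line, while that of tested HSPC markers (0.36) lies above it.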

How the data were processed

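RNA-seq libraries of donor HSPCs were grouped by the genotype in the sample labels (3 WT, 3 Hemgn-/-). The deposited table holds the authors' FPKM per gene with a column per library, and 0 columns were left unmapped. The submitters' processing notes name HISAT2 2.1.0, Bowtie2 2.2.3, TopHat2, HTSeq 0.6.0 and GRCm38 without their roles. The annotation and strand setting are not given in the sources used here. The methods give Smart-Seq2 cDNA, while the labels name another kit and another injection route than the design text. Symbols, positions and exon lengths came from GENCODE M21 (24921 of 24965 genes matched), and promoters from RefSeq.

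Library depth was worked out from the spacing of low FPKM values. Among 13472 genes whose highest library had 100 fragments or fewer, 95.7% gave whole fragments in all 6 libraries (tolerance 0.05). Fragments of amplified cDNA are not independent molecules. Libraries of a group differed by more than sampling noise (chi-square per gene 17.5 to 35.2), so none was treated as a copy, and p-values measure the spread between these libraries.

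Genes exceeding 1 FPKM in any library were compared on log2(FPKM + 1) with limma 3.58.1 in R 4.3.3 (eBayes with a trend, no covariate). P-values are two-sided, adjusted by Benjamini-Hochberg over all genes tested. Other steps used Python 3.11.15, pandas 2.3.3, numpy 2.4.6 and matplotlib 3.10.9, and the fit was tested on simulated data. The genes and lists were chosen with earlier results of these data known. Named genes were the 10 genes, Hemgn and, from each list, up to 4 genes with an adjusted p under 0.05 and the most abundant one, except where the text says otherwise.

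Alternatives were a pseudocount of 0.1, no filter, a mean FPKM of at least 1, scaling by median ratios, TPM, quantiles, a fit with no trend, a replicate block, voom on recovered fragments and leaving out each library.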

Additional observations from a re-analysis of the deposited data

How the results depend on the processing

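With an adjusted p under 0.05, 887 genes were called (600 higher, 287 lower), 466 without a filter, 390 without a trend and 373 to 688 with a library left out. The calls split into 342 higher and 387 lower with median-ratio scaling, 368 and 346 with quantile normalization, and 1049 and 238 with TPM. At the study's thresholds, 939 genes became 1437 with TPM and 1412 with voom.

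Aplnr lost its call without a filter, without a trend and with TPM (log2 fold change −0.55 each, adjusted p = 0.107, 0.0692 and 0.0573 from limma), and its values were −0.60 to −0.47 with a library left out. Over all genes tested, the same-numbered libraries did not deviate together (r = −0.043, −0.0094 and 0.011). Deviations from the mean of 3 libraries cannot show whether same-numbered libraries were handled together. With the replicate block Aplnr was at −0.55 (adjusted p = 0.0731 from limma), 636 genes were called in all, and the HSPC and macrophage lists had 0 and 3 calls. Stab2 passed with voom (−0.76) and without WT replicate 2, with −0.68 to −0.45 over the libraries left out. The sign of the 8 tested endothelial genes held wherever they were tested, but values came close to 0 for Emcn (−0.0018), Stab1 (−0.0039) and Kdr (−0.075) with 1 library left out. Emcn and Tek were not tested at a mean FPKM of at least 1, nor Tek without Hemgn-/- replicate 2.

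Among other endothelial genes, 2 were called with voom and 0 to 1 with a library left out. Voom called 1 ligand, and receptor partners had 0 calls without a trend. HSPC markers had 0 calls without a filter, without a trend, with median-ratio scaling and with quantile normalization, and 0 to 1 with a library left out. Macrophage markers had 3 calls without a filter, 1 without a trend and 1 to 3 with a library left out. The median of megakaryocyte markers was 0.23, 0.084 without a filter, 0.020 at a mean FPKM of at least 1 and 0.043 to 0.24 with a library left out. The median of erythroid markers was −1.29, −2.09 with a pseudocount of 0.1 and at a mean FPKM of at least 1, −0.62 without a filter, −1.68 with TPM and −2.26 with voom. The causes were not tested. The values of Flt4, Cdh5 and Tek rest on 47 to 121, 79 to 121 and 25 to 144 fragments a library.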
